A study of Mus musculus with 8 samples.

Results

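The collagen genes of the table, defined as all rows whose gene symbol is Col, a number, the letter a and a number, comprised 43 of 34478 genes. By chain type they were 11 fibrillar, 6 basement membrane type IV and 26 other genes, the last made up of 9 FACIT, 6 beaded filament type VI, 4 transmembrane, 2 multiplexin, 2 network and 3 anchoring fibril and remaining chains. Expression was measured by RNA-seq of polyA RNA from 4 primary murine pancreatic cancer (PDAC) cell lines, #1, #3, #5 and #10, each with 1 DMSO-treated library and 1 library after 48 h of trametinib, a MEK inhibitor (MEKi). Each line was treated at its own IC50, and the doses are not given in the sources used here. Every line came from a genetically engineered mouse model with the alleles Ptf1awt/Cre and Trp53loxP/loxP, in which Cre recombinase made from the Ptf1a locus in pancreatic cells deletes Trp53, and the DMSO controls carry the same alleles as the treated cells. The lines had been grown out of tumor pieces as cultures of tumor cells, so RNA was measured in cultured cancer cells and no matrix protein was measured. The comparison asked how inhibition of MAPK signaling changes the transcriptional state of the cells.

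Collagens are secreted proteins whose chains wind into a triple helix. Fibrillar collagens such as types I, III, V and XI build the banded fibers of connective tissue, type IV collagens build the sheet of the basement membrane under epithelia, and FACIT collagens (fibril-associated collagens with interrupted triple helices) sit on the surface of fibrils. In pancreatic cancer the collagen-rich stroma is a hallmark of the tissue, and most of its fibrillar collagen is known to come from fibroblasts and stellate cells, whereas epithelial cells are known for basement membrane collagens. Many chains are usually assembled with a partner, such as the a1 and a2 chains of types I and IV, which makes the balance of partner chains informative.

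Values are normalized counts and are given in the order of lines #1, #3, #5 and #10. Library totals ranged from 30680091 to 36385719 normalized counts. One read was worth 0.775 to 1.24 normalized counts, judged from the step between the lowest values, so 3 reads correspond to 2.33 to 3.72 normalized counts, which served as the floor below which a value was read as near 0. Each line has 1 library per treatment, so limma p-values set the mean change within lines against the spread of these changes over the 4 lines. Epithelial markers were abundant, with the sum of Krt7, Krt8, Krt18, Krt19, Epcam and Cdh1 at 220830.1 to 347527 with DMSO and 112419.7 to 220763.8 with trametinib, and the 4 keratins fell (limma adjusted p = 0.00543 to 0.0287). Epcam was listed at 0 in all lines but #3, where it stood at 10.4 and 3.75. The 12 fibroblast and stellate markers together summed to 78.4 to 158.8 with DMSO and 113 to 179.8 with trametinib, and the fibroblast gene Lum was listed at 0 in all 8 libraries. Of these 12 genes 4 could be tested, and Cspg4 rose (log2 fold change 1.75, SE 0.44, adjusted p = 0.0143). The 5 endothelial markers summed to 38.1 to 82.1 with DMSO and 75.5 to 1779 with trametinib, with Tek and Vwf called higher and line #3 at the upper end, and the 3 leukocyte markers to 142 to 205 and 146 to 238. The part of these marker values in the collagen results was not tested. In bulk RNA, fewer cells of a type and less RNA per cell cannot be told apart.

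Collagen transcripts took up a larger share of every treated library. Together the 43 genes held 0.133%, 0.138%, 0.128% and 0.142% of all normalized counts with DMSO, and 0.233%, 0.524%, 0.350% and 0.244% with trametinib. The 4 DMSO values lay close together and all treated values were above them, with line #3 far above the others. The mean share went from 0.135% ± 0.00599 to 0.338% ± 0.135 (SD, n = 4), a rise of 0.202 percentage points ± 0.135, or 1.72-fold to 3.80-fold within a line, and the rise was 0.141 points without line #3. Most of these transcripts came from Col4a1 and Col4a2, which made up 67.6% ± 4.75 of collagen counts with DMSO and 74.8% ± 10.1 with trametinib. Without this pair the share of the library still went from 0.0437% ± 0.00667 to 0.0765% ± 0.0207 and was higher in 4 of 4 lines.

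**Figure D1:**
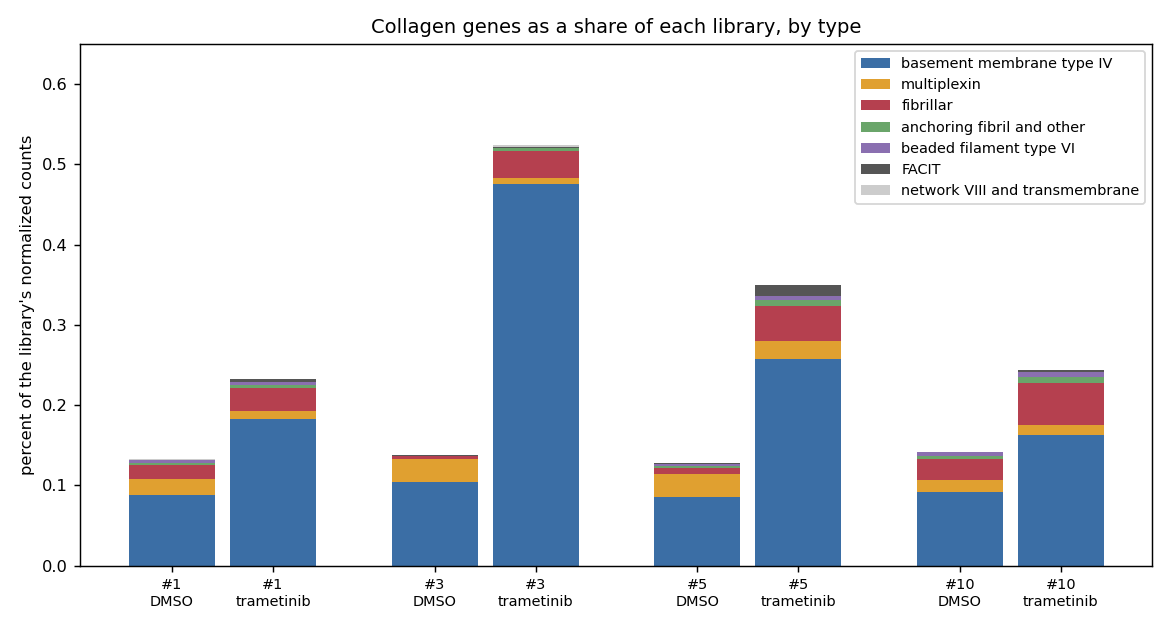
Stacked bars give the percent of each library's normalized counts held by the 43 collagen genes, split by chain type, for DMSO and trametinib in lines #1, #3, #5 and #10. Type IV forms the largest block in all 8 libraries, and the treated bar of line #3 reaches 0.524% against 0.138% with DMSO.

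The composition shifted as well. Multiplexins, that is Col15a1 and Col18a1, dropped from 17.3% ± 5.32 to 4.19% ± 2.13 of collagen counts and were lower in 4 of 4 lines. Fibrillar genes went from 9.69% ± 6.97 to 13.2% ± 6.19, FACIT genes from 0.34% ± 0.208 to 1.73% ± 1.52, and type VI genes from 2.34% ± 1.52 to 1.23% ± 0.858 (SD, n = 4 lines each). In the lines the fibrillar share was 12.35%, 2.43%, 5.85% and 18.13% with DMSO and 12.38%, 6.59%, 12.41% and 21.57% with trametinib. It was nearly unchanged in line #1. The treated FACIT share was highest in line #5, at 3.84%. In line #3 it was 0.262%, against 0.239% with DMSO. Shares of a fixed total move against each other, so a type can lose share without losing transcripts: the type VI counts were higher in 2 of 4 treated lines.

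Of the 43 genes, 25 had a mean of at least 10 normalized counts and were tested with limma, and 18 lay below this limit. With trametinib 15 of the 25 passed the adjusted p threshold of 0.05 upward and 2 downward, beside 27.3% of all 15888 genes tested that were called higher and 25.6% called lower. The median log2 fold change was 1.43 over the 25 genes and 0.07 over all genes tested. In 8 of the 25, all treated libraries lay above all DMSO libraries, against 15.1% of all genes tested, and in none did they lie below, against 16.2%. The genes Col5a2, Col5a3, Col4a4 and Col2a1, 4 of the 25, reached this limit only through their treated libraries, so the counts over tested genes favour higher calls. Libraries rescaled to equal totals moved the median log2 fold change of all genes from 0.07 to 0.20 and the share of higher among all calls from 51.6% to 61.8%, with 15 collagen genes higher and 2 lower as before. Quantile normalization gave a median of -0.03 and a share of 47.2%, with 14 and 2 collagen genes, and centring on the median gave 0.01 and 46.1%, with 15 and 2. Over all 43, 17 were higher in each of the 4 lines and 3 were lower in each. No share of all genes is given beside these counts, so they are a description. By type, 6 of 9 tested fibrillar genes rose and none fell, 4 of 6 type IV genes rose and none fell, and 5 of 10 tested genes of other types rose and 2 fell. The median log2 fold changes of these groups were 1.72, 1.49 and 0.82.

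**Figure D2:**
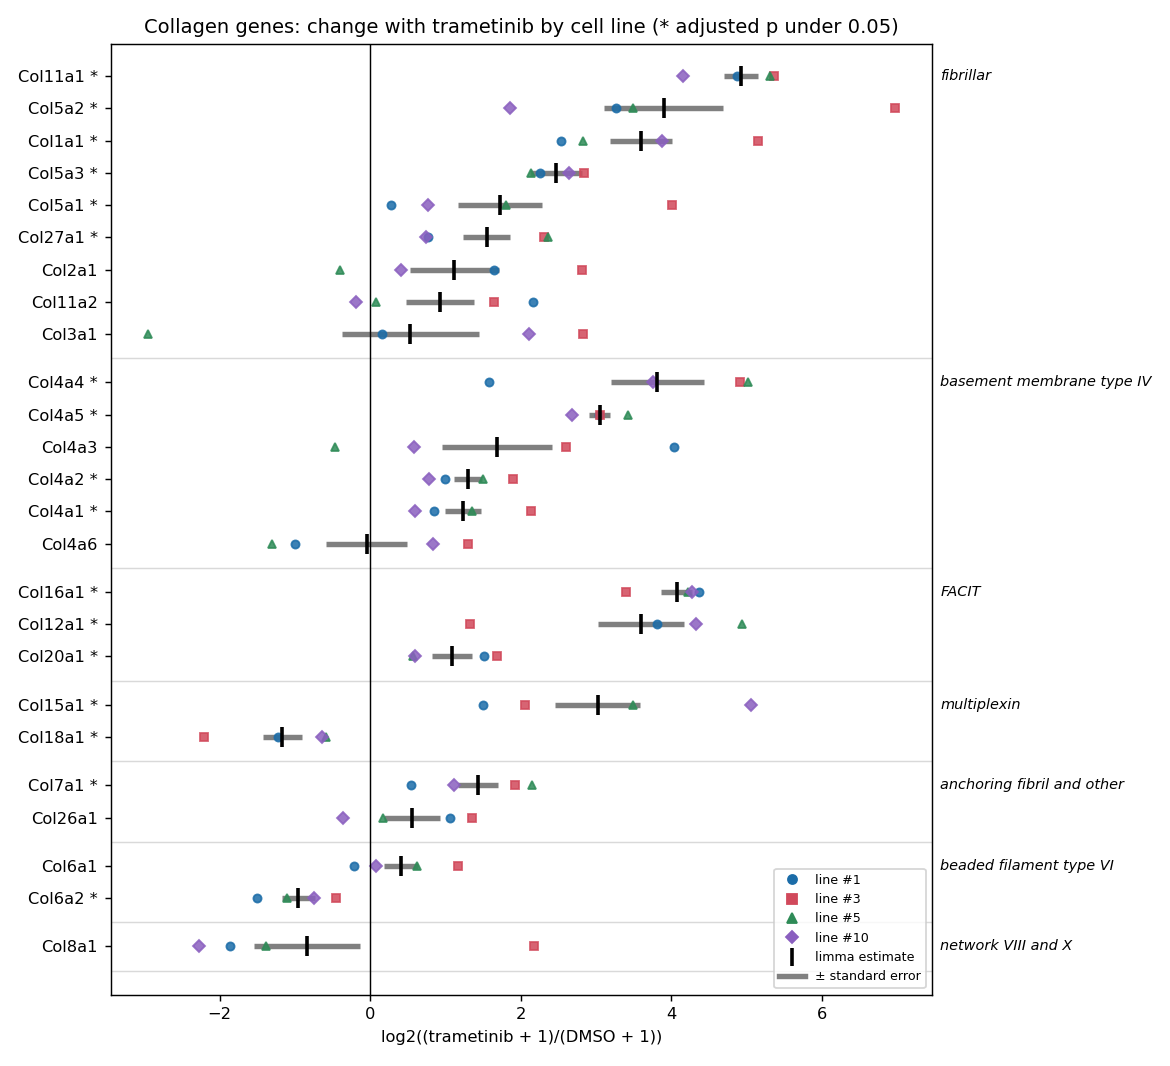
Points give log2((trametinib + 1)/(DMSO + 1)) of each of the 25 tested collagen genes in the 4 lines, grouped by chain type, with the limma estimate (black bar) and its standard error (grey), and a star at an adjusted p under 0.05. Estimates run from 4.92 for Col11a1 to -1.17 for Col18a1, and the points of Col4a5 and Col11a1 lie closer together than those of Col3a1 and Col8a1.

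Among fibrillar genes the largest change was that of Col11a1 (GRCm38 chr3:114030540-114220718, plus strand), which encodes a minor fibril chain that sets fibril diameter together with type V. Its normalized counts were 18.2, 78.1, 61.6 and 36.6 with DMSO and 558, 3258, 2473 and 668 with trametinib. Each treated library was far above every DMSO library, and the lines kept their order. The rise was 30.3-fold (log2 fold change 4.92, SE 0.23, adjusted p = 9.44e-05), with adjusted p-values of 7.74e-05 to 0.00213 over the 14 alternative settings. The 250 bases before its RefSeq start (GRCm38.p6 chr3:114030290-114030539, plus strand) are shown because this gene had the largest fitted rise, with capitals marking GGGCGG or CCAAT in either direction, the motifs known as GC box and CCAAT box.
Col11a1: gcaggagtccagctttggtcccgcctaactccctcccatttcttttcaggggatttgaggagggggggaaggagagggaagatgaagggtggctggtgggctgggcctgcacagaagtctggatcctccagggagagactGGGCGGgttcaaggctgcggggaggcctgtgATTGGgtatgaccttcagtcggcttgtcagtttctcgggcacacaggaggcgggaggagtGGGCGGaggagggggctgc
The window holds 2 GGGCGG and 1 CCAAT match. Over 32851 RefSeq windows of the same length, 32.7% hold GGGCGG and 33.8% hold CCAAT, so both are common.

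Type I collagen is the main fibrillar collagen of connective tissue and is usually assembled from a pair of Col1a1 chains and one Col1a2 chain, although a trimer of Col1a1 chains alone is known. Col1a1 (chr11:94936224-94953042, plus strand) stood at 61.4, 30.1, 130.3 and 74.5 with DMSO and 360.4, 1103, 930.4 and 1110.1 with trametinib. All treated libraries were above all DMSO libraries, with line #1 lowest after treatment, and the rise was 12.1-fold (log2 fold change 3.60, SE 0.42, adjusted p = 0.000872). Its partner Col1a2 (chr6:4504814-4541544, plus strand) was not tested because of low values and was listed at 0, 0, 4.29 and 0.854 with DMSO and 0, 2.89, 0.711 and 0.856 with trametinib. Only the DMSO library of line #5 and the treated library of line #3 exceeded the floor of 3 reads, so no direction of change was read for Col1a2. Its treated values stayed near 0 and did not exceed 2.89. Per kilobase of transcript, Col1a1 reached 60.8, 186, 157 and 187 in the treated libraries while Col1a2 stood at 0, 0.541, 0.133 and 0.16.

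Type V chains nucleate fibrils and regulate their width. Col5a1, per kilobase the highest of them, stood at 2884, 101, 829 and 3635 with DMSO and 3500.3, 1648, 2906 and 6203 with trametinib. The DMSO values spanned a 36-fold range with line #3 lowest, whereas the treated values spanned 3.76-fold, and the groups overlapped. Col5a1 was higher in 4 of 4 lines with log2 fold changes of 0.28, 4.01, 1.81 and 0.77 (log2 fold change 1.72, SE 0.56, adjusted p = 0.0379), but the call was lost without line #5 or #10, without the filter, without the variance trend and without the line as a block, where adjusted p = 0.238 (range over alternatives 0.0281 to 0.238). Without line #3 its log2 fold change was 0.95. Its usual partner Col5a2 was listed at 12.2, 0, 2.44 and 1.89 with DMSO and 126, 124, 37.7 and 9.45 with trametinib. The DMSO libraries of lines #3, #5 and #10 were at or under the floor, so the fitted change (log2 fold change 3.90, SE 0.79, adjusted p = 0.00627) depends on the pseudocount, with 4.95 at a pseudocount of 0.1 and 2.80 at 5. For this reason no difference in log2 fold change was read between Col5a2 and Col5a1 or Col3a1. The third chain, Col5a3, stood at 5.16, 1.98, 3.54 and 4.56 with DMSO and 28.4, 20.4, 19 and 33.8 with trametinib. Its treated values were above every DMSO value although still low (log2 fold change 2.47, SE 0.35, adjusted p = 0.00157). The DMSO libraries of lines #3 and #5 were at or under the floor here. The log2 fold change of Col5a3 was 2.75 at a pseudocount of 0.1 and 1.77 at 5.

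Col27a1, a fibrillar chain known from cartilage, was also abundant in these cells. Its values were 2830.4, 872, 1509 and 5129.7 with DMSO and 4832, 4308, 7769 and 8585 with trametinib. The DMSO value of line #10 exceeded the treated values of lines #1 and #3, yet each line was higher with trametinib (log2 fold changes 0.77, 2.30, 2.36 and 0.74), giving log2 fold change 1.55, SE 0.31, adjusted p = 0.00624. The fibrillar genes Col2a1, Col11a2 and Col3a1 did not pass the test. Col3a1, the partner of type I in loose connective tissue, stood at 5.16, 6.92, 97.2 and 3.19 with DMSO and 5.86, 55.3, 11.7 and 17 with trametinib, so that line #5 was lower and lines #3 and #10 were higher after treatment (log2 fold change 0.53, SE 0.91, adjusted p = 0.644). Col11a2 was 21.1, 22.8, 54.2 and 17.2 with DMSO and 98.3, 73.7, 57.2 and 15 with trametinib (log2 fold change 0.93, SE 0.45, adjusted p = 0.125). Its values were higher in lines #1 and #3, and differed little in #5 and #10. Col2a1, the main cartilage fibril chain, was 6.37, 0, 25.6 and 3.94 with DMSO and 22.1, 6.05, 19.1 and 5.54 with trametinib (log2 fold change 1.12, SE 0.59, adjusted p = 0.153). Col24a1 stayed below the filter at a highest value of 12.3 and was lower with trametinib in 4 of 4 lines.

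**Figure D3:**
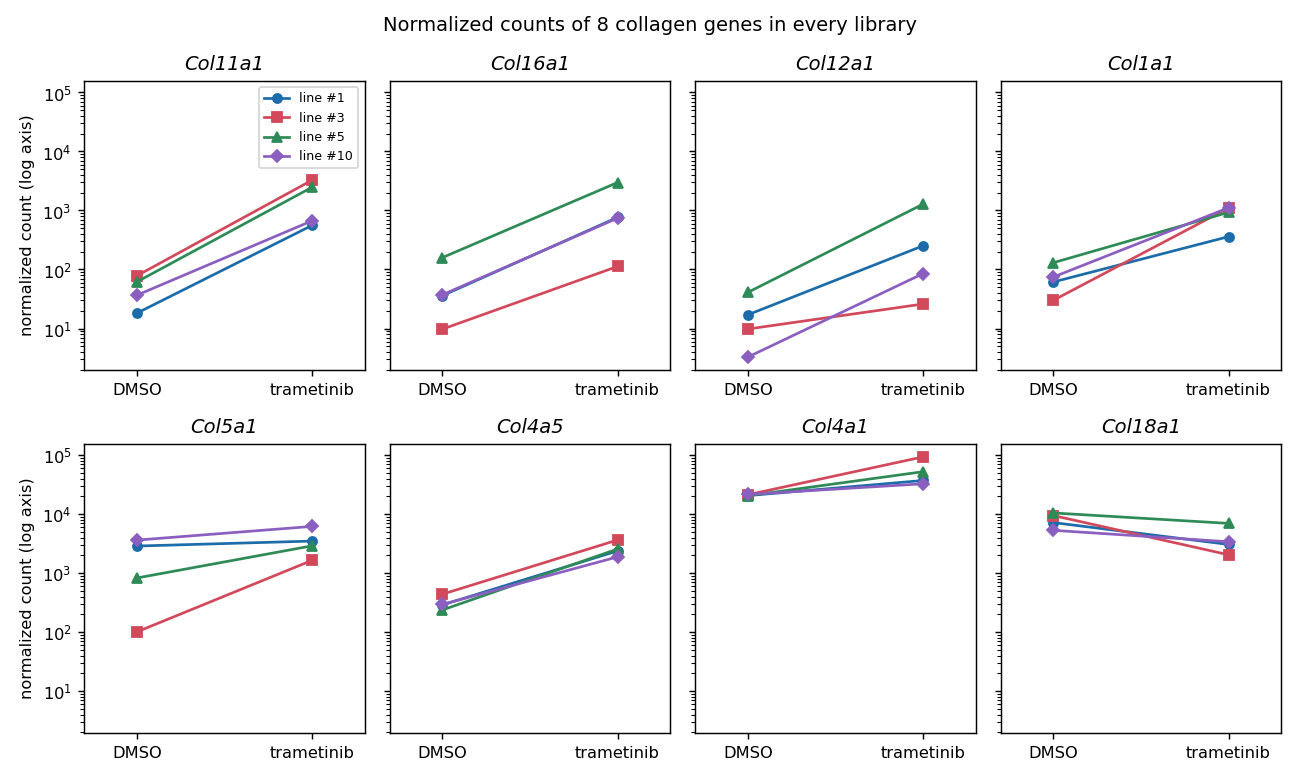
Lines connect the DMSO and the trametinib library of each cell line for 8 collagen genes, as normalized counts on a log axis shared by all panels. Col11a1, Col16a1, Col12a1, Col1a1, Col5a1, Col4a5 and Col4a1 rise and Col18a1 falls in every line, and the 4 DMSO libraries of Col4a1 lie between 20520.2 and 21630.3.

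Basement membrane collagen IV is assembled from 6 chains whose genes lie as 3 head-to-head pairs. Col4a1 (GRCm38 chr8:11198423-11312826, minus strand) and Col4a2 (chr8:11312805-11449287, plus strand) encode the chains found in nearly all basement membranes. Col4a1 stood at 20639, 21342, 20520.2 and 21630.3 with DMSO and 37224, 93522, 52454 and 32711 with trametinib. Its DMSO values differed by 1.05-fold between lines, and all treated values were above them (log2 fold change 1.23, SE 0.24, adjusted p = 0.0056). Col4a2 followed at 10466, 13003, 10319.6 and 9883 with DMSO and 20843, 48472, 29255 and 16964 with trametinib and again the groups did not overlap (log2 fold change 1.29, SE 0.19, adjusted p = 0.00171). The first exons of the pair overlap by 22 bases, shown in capitals in this window on the plus strand (GRCm38.p6 chr8:11312801-11312830).
Col4a1 and Col4a2: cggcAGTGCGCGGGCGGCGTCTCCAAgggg
Reads from the overlap could be assigned to either gene where strand was not used, and whether it was is not given in the sources used here. Per kilobase, Col4a1 was 1.60 to 2.13 times as high as Col4a2 with DMSO and 1.74 to 1.88 times with trametinib. The difference of their log2 fold changes was -0.06 ± 0.20 (SD, n = 4 lines), smaller than the spread between lines, and was positive in 1 line and negative in 3. The exact two-sided sign-flip p was 0.625, in a design whose smallest p is 0.125.

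The second pair, Col4a3 and Col4a4, encodes chains known from the kidney and lung basement membranes. Their starts lie 71 bases apart on opposite strands (GRCm38.p6 chr1:82586850-82586920), and the bases between them hold none of the motifs searched. They are shown on the plus strand because the fitted change of Col4a4 was the largest of the type IV genes, although at a pseudocount of 5 that of Col4a5 was larger and the DMSO values of Col4a4 lie near the floor.
Col4a3 and Col4a4: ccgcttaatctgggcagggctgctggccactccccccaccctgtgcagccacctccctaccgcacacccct
Col4a4 was listed at 5.93, 3.99, 0 and 5.51 with DMSO and 19.7, 149, 31.3 and 87.1 with trametinib. All DMSO values were under 6 and all treated values at least 19.7, with line #3 highest (log2 fold change 3.82, SE 0.61, adjusted p = 0.00254), and the log2 fold change was 4.79 and 2.82 at pseudocounts of 0.1 and 5. Col4a3 across the same 71 bases stood at 0.392, 15.8, 27.8 and 11.4 with DMSO and 21.8, 101, 19.8 and 17.5 with trametinib. Line #5 was lower and the other lines were higher, and the test was not passed (log2 fold change 1.68, SE 0.73, adjusted p = 0.0935), though it was without line #5 (2.40, adjusted p = 0.0422). Without line #1 the log2 fold change was 0.90 (adjusted p = 0.291, range over alternatives 0.0422 to 0.291).

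The chains of the third pair changed by different amounts. Col4a5 (GRCm38 chrX:141475385-141689234, plus strand) went from 289.8, 440.1, 238 and 295 to 2382, 3649.7, 2568 and 1888. The treated values were all far above the DMSO values and the lines changed by a similar amount, 3.03, 3.05, 3.43 and 2.67 on the log2 scale (log2 fold change 3.05, SE 0.14, adjusted p = 9.13e-05). Col4a6 (chrX:141165403-141474076, minus strand) was low at 5.71, 21.6, 15.7 and 11 with DMSO and 2.35, 54.5, 5.74 and 20.3 with trametinib, lower in lines #1 and #5 and higher in #3 and #10 (log2 fold change -0.05, SE 0.54, adjusted p = 0.948). The difference of the log2 fold changes was 1.76, 4.74 and 1.85 in lines #3, #5 and #10. Its mean was 3.09 ± 1.52 (SD, n = 4) with line #1, where the treated Col4a6 value lay under the floor, and 2.78 without it, and no p is given. Per kilobase Col4a5 was 15.4 to 51.6 times as high as Col4a6 with DMSO and 68.1 to 455 times with trametinib in lines #3, #5 and #10, while in treated line #1 Col4a6 was under the floor and no ratio was read. The starts of these 2 genes lie 1308 bases apart, and the upstream windows of both are shown for this contrast, each in the direction of its gene, with capitals marking CCAAT or GGGCGG in either direction. They cover chrX:141475169-141475384 on the plus strand and chrX:141474077-141474326 on the minus strand of GRCm38.p6.
Col4a5: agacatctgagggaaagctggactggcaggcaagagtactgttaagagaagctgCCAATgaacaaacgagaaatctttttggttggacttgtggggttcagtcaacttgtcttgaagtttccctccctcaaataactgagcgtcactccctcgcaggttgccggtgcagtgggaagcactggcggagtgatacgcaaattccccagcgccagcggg
Col4a6: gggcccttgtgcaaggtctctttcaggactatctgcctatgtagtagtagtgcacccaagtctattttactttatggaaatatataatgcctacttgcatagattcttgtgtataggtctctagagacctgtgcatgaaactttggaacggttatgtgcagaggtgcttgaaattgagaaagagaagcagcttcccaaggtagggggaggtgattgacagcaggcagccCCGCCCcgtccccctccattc
The Col4a5 run holds 1 CCAAT match and the Col4a6 run 1 GGGCGG match, printed as its reverse complement. The Col4a5 run stops before an annotated UTR, and the rest of its window, not printed, holds 1 GGGCGG match, so GGGCGG occurs in the windows of both genes.

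**Figure D4:**
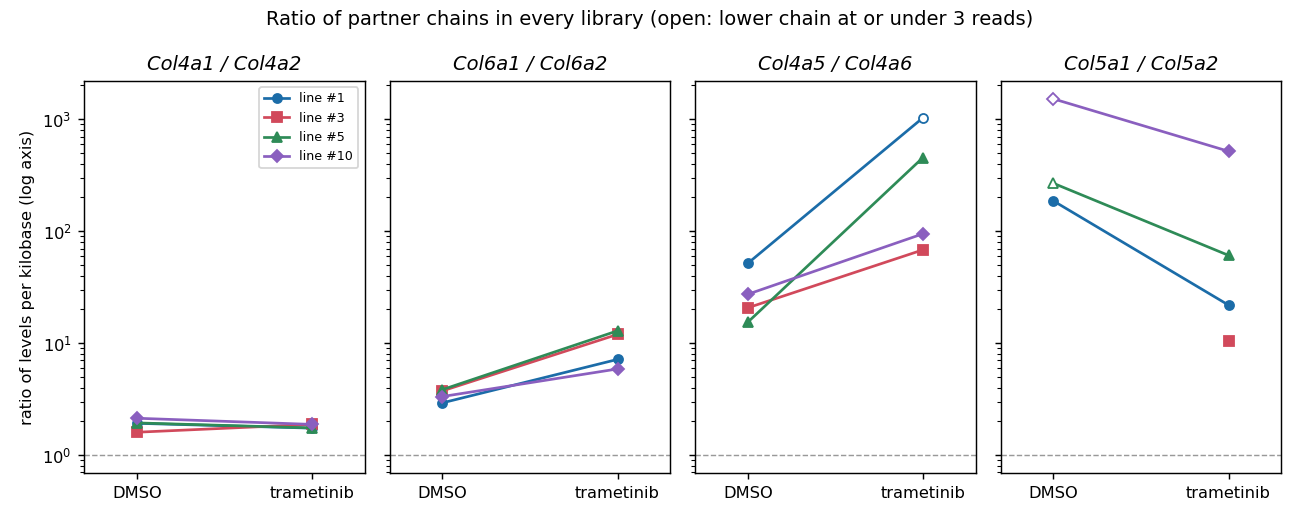
Each line gives the ratio of 2 partner chains per kilobase of transcript in the DMSO and the trametinib library of a cell line, on a log axis, with a dashed line at equal levels. Col4a1/Col4a2 stays between 1.60 and 2.13 and Col6a1/Col6a2 goes up in every line. Open symbols mark ratios whose lower chain was at or under the floor of 3 reads (Col4a6 in treated line #1, Col5a2 with DMSO in lines #5 and #10), from which no direction is read, and line #3 has no DMSO ratio for type V because Col5a2 was listed at 0.

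FACIT collagens bind to fibrils and link them to other matrix. Of the 9 genes, Col16a1, Col12a1 and Col20a1 could be tested, and all 3 were called higher. Col16a1 (GRCm38 chr4:130047840-130099283, plus strand) was 36, 9.74, 159 and 37.2 with DMSO and 764, 113, 2978 and 742 with trametinib. Line #5 was highest and line #3 lowest in both groups, and the rise was 16.8-fold (log2 fold change 4.07, SE 0.21, adjusted p = 9.77e-05), with 4.37, 3.40, 4.22 and 4.28 in the lines. The 250 bases before its start (chr4:130047590-130047839, plus strand, GRCm38.p6) are shown for a gene higher in 4 of 4 treated lines, with a GGGCGG and a CCAAT match in capitals.
Col16a1: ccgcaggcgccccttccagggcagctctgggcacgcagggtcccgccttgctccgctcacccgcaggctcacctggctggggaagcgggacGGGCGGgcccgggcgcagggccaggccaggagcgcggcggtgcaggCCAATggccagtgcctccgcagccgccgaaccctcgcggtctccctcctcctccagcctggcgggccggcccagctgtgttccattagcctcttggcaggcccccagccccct
Col12a1, which decorates type I fibrils in tissues under tension, was 17.1, 9.8, 40.9 and 3.28 with DMSO and 252, 26, 1281 and 85.1 with trametinib. Its treated value in line #3 lay below the DMSO value in line #5, although each line was higher (log2 fold change 3.60, SE 0.57, adjusted p = 0.00243), and the log2 fold change was 4.36 without line #3. Col20a1 was 81.3, 83, 85.8 and 31.2 with DMSO and 234, 269.7, 128 and 47.4 with trametinib. Line #10 was lowest in both groups and its treated value lay below the other DMSO values (log2 fold change 1.09, SE 0.26, adjusted p = 0.0128), and the call was lost without the line as a block (adjusted p = 0.191), under quantile normalization and without line #1 (range over alternatives 0.008 to 0.191). Col14a1 was below the filter and was listed at 0 in the 4 DMSO libraries and at 3.76, 5.63, 6.61 and 7.11 with trametinib. Col9a1 was listed at 0 everywhere, and Col9a2, Col9a3, Col19a1 and Col22a1 did not exceed 12.8 in any library.

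The 2 multiplexins, basement membrane collagens that carry heparan or chondroitin sulfate chains, moved in opposite directions. Col18a1 (GRCm38 chr10:77052178-77166548, minus strand), the precursor of endostatin, was 7206, 9478, 10486 and 5325 with DMSO and 3069, 2051, 6979 and 3409 with trametinib. It was lower in each treated line, most so in line #3, and the treated value of line #5 lay within the DMSO range. The decrease was 2.25-fold (log2 fold change -1.17, SE 0.26, adjusted p = 0.0093). The bases before its first RefSeq start are printed for this gene, from GRCm38.p6 chr10:77166549-77166780 on the minus strand, with capitals marking 1 CCAAT match and 3 GGGCGG matches, each as its reverse complement.
Col18a1: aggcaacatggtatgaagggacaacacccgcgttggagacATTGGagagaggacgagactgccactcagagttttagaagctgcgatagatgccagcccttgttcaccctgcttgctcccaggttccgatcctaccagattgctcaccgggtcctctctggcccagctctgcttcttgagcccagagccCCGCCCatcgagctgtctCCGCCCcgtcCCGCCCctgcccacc
Col15a1 was 30.9, 24.2, 31.7 and 10.6 with DMSO and 88.6, 104, 365 and 384 with trametinib. All treated libraries were above all DMSO libraries, with log2 fold changes from 1.49 in line #1 to 5.05 in line #10 (log2 fold change 3.02, SE 0.57, adjusted p = 0.00458), and without line #10 the value was 2.35.

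Col7a1, the chain of the anchoring fibrils that fasten basement membranes to stroma, was 953, 237, 600.3 and 1140.3 with DMSO and 1383, 896, 2672 and 2460.5 with trametinib. Lines #1 and #10 were highest with DMSO, and line #5 rose most (log2 fold change 1.43, SE 0.26, adjusted p = 0.00426). Without the line as a block the adjusted p was 0.0694 (range over alternatives 0.00337 to 0.0694). Col26a1 was 16.2, 16.1, 37.9 and 14.9 with DMSO and 34.9, 42.8, 42.9 and 11.4 with trametinib and did not pass the test (log2 fold change 0.56, SE 0.37, adjusted p = 0.245), with line #10 lower and the other lines higher.

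Type VI collagen forms beaded filaments from chains a1, a2 and a larger a3 chain. Col6a1 was 1011, 49.9, 911 and 1321 with DMSO and 869.6, 113, 1407 and 1391 with trametinib. Line #3 was far below the other lines in both groups, and no change was called (log2 fold change 0.41, SE 0.23, adjusted p = 0.169). Col6a2 was 392, 15.1, 269 and 449 with DMSO and 138, 10.7, 124 and 268 with trametinib, again with line #3 lowest, and it was lower in 4 of 4 lines although the groups overlapped (log2 fold change -0.95, SE 0.22, adjusted p = 0.011). This call was lost without line #1 or #5 and without the line as a block, where adjusted p = 0.601 (range over alternatives 0.0035 to 0.601). Per kilobase, Col6a1 was 2.93 to 3.84 times as high as Col6a2 with DMSO and 5.88 to 12.9 times with trametinib. The difference of log2 fold changes was 1.37 ± 0.41 (SD, n = 4) and of the same sign in 4 of 4 lines, with an exact sign-flip p of 0.125, the smallest that 4 lines allow, and 0.208 after adjustment over the 5 pairs computed, which include the 3 with values under the floor. Col6a3, which type VI filaments also require, stayed below the filter and did not exceed 14.8. Col6a4, Col6a5 and Col6a6 did not exceed 12.8.

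Col8a1, a short-chain network collagen known from vessel walls and the cornea, was 324, 126, 70.8 and 78.7 with DMSO and 88.2, 574, 26.4 and 15.4 with trametinib. Line #3 was higher with trametinib while the other lines were lower, and no change was called (log2 fold change -0.84, SE 0.70, adjusted p = 0.348). Without line #3 the log2 fold change was -1.85 with an adjusted p of 0.00241 (range over alternatives 0.00241 to 0.734). Its partner Col8a2 had a mean just under the filter and was 3.05, 1.02, 3.66 and 1.89 with DMSO and 6.74, 14.7, 9.43 and 16.1 with trametinib, so that the treated libraries were above the DMSO libraries at low levels. Without the filter, Col8a2 and the FACIT gene Col14a1 were called higher as well (adjusted p = 0.0346 and 0.00245). The mean normalized count was 7.07 for Col8a2, the highest below the filter, and 11.1 for Col2a1, the lowest above it. The transmembrane genes Col13a1, Col17a1, Col23a1 and Col25a1 were all below the filter, with no value above 11.4, and Col28a1 did not exceed 10.6. Col10a1 was not among the genes listed for these libraries and so was not analysed.

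Levels of different genes were compared per kilobase of the longest coding transcript. With DMSO, Col4a1 stood highest at 3179.6 ± 81.4 normalized counts per kilobase, followed by Col4a2 at 1693 ± 219 and Col18a1 at 1452 ± 414 (SD, n = 4). The ranges of the last 2 overlapped, and Col4a2 was the higher in 3 of 4 lines. Below them stood Col27a1 at 339.7 ± 247, Col5a1 at 222 ± 199 and Col6a1 at 201 ± 133. Within lines Col27a1 was above Col5a1 in 4 of 4, and Col5a1 above Col6a1 in 2 of 4. Col1a1, at 12.5 ± 7.06, and Col11a1, at 6.34 ± 3.46, were minor transcripts of untreated cells. With trametinib, Col4a1 was at 8159.9 ± 4185 and Col4a2 at 4478 ± 2175, then Col27a1 at 837 ± 278 and Col18a1 at 693 ± 384, with Col27a1 the higher of these 2 in 3 of 4 lines. Next by their means came Col5a1 at 424 ± 229 and Col4a5 at 401 ± 114, each the higher in 2 of 4 lines. Col6a1 stood at 230.5 ± 148, Col11a1 at 227 ± 175, Col16a1 at 221 ± 241, Col7a1 at 200.3 ± 92.1 and Col1a1 at 148 ± 59.6. No neighbours among these 5 kept 1 order in all 4 lines.

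The lines differed in their collagen genes before treatment and in how far they moved. Line #3 had the lowest DMSO value in 10 of the 25 tested genes and the largest log2 fold change in 15. The median log2 fold change of the 25 genes was 1.49, 2.18, 1.50 and 0.78 in the lines, beside 0.05, 0.06, 0.03 and 0.04 over all genes tested, and 20, 23, 18 and 20 of the 25 were higher with trametinib. A low DMSO value enters the fold change of the same line, so these counts are a description. The lines did not become more alike as a rule, since the SD of log2 values over the lines was smaller with trametinib in 11 of the 25.

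RefSeq promoter windows were found for 34 of the 43 genes, giving 37 windows of 250 bases. GGGCGG on either strand was in 59.5% of these windows, beside 32.7% of all 32851 windows, and CCAAT was in 35.1%, beside 33.8%. TATAAA was in 10.8% (12.4% of all windows), TGANTCA, the letters of the AP-1 motif, in 2.70% (6.75%), and the CArG box in 2.70% (1.47%). TGANTCA was found in the window of Col6a1 only. These are letter matches and not sites of binding. Among the tested genes, exons of Col3a1, Col4a1, Col4a2, Col4a3, Col5a1, Col7a1, Col15a1 and Col20a1 overlap those of another annotated gene, so some of their counts may belong to the neighbour.

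Collagen chains need a set of enzymes and chaperones in the endoplasmic reticulum (ER), export carriers, and enzymes that trim and cross-link them outside the cell. Of 47 tested genes in 5 lists of such functions, 31 were called higher and 5 lower, beside 27.3% and 25.6% of all genes tested. Without the line as a block these counts were 15 and 2, beside 13.9% and 14.8% of all genes. Of the 47 genes, 4 had a DMSO mean under 10 and reached the filter only through their treated libraries. The counts over these lists therefore favour higher calls. In the ER list, 1 of the 19 genes reached the filter in this way. This list had 12 of 19 higher and 2 lower (5 and 1 without the block), with a median log2 fold change of 0.57. Its called genes with the largest fitted change were P4ha3, a proline hydroxylase subunit (log2 fold change 1.60, SE 0.42, adjusted p = 0.0176, with 3.38 in line #3 and 1.01 without that line), Colgalt1, which adds galactose to hydroxylysine (log2 fold change 1.55, SE 0.16, adjusted p = 0.000616), and Serpinh1, the collagen chaperone HSP47 (log2 fold change 1.52, SE 0.26, adjusted p = 0.00327). Serpinh1 was 4248, 1072, 7827 and 3368 with DMSO and 10784, 6620.1, 15997 and 7096 with trametinib, with overlapping groups, and each line rose. Without the line as a block its adjusted p was 0.068 (range over alternatives 0.000306 to 0.068). The prolyl hydroxylase subunit P4ha2 was higher in 4 of 4 lines (log2 fold change 0.37, SE 0.12, adjusted p = 0.0431), a call that held under 5 of 14 alternatives (range of adjusted p over them 0.0141 to 0.474). The subunits P4ha1 and P4hb were not called, with a log2 fold change of -0.17 for P4ha1 (adjusted p = 0.149) and -0.07 for P4hb (adjusted p = 0.551), nor was the lysyl hydroxylase Plod2 at -0.04 (adjusted p = 0.832). The 2 genes that fell, Crtap and Ppib, encode partners of a prolyl 3-hydroxylase, and were named after their values were seen, as were P4ha2, Kdelr2, Pcolce2, Sparc and Itga10 below.

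Of 5 tested export genes 3 rose and 1 fell, and 1 and 0 without the line as a block, against the same shares of all genes. Creb3l1, a transcription factor known to drive secretory and collagen genes in bone, rose most (log2 fold change 2.12, SE 0.23, adjusted p = 0.000752), and the COPII coat genes Sec24d and Sec23a rose by 0.51 and 0.50 on the log2 scale, calls that were lost without the line as a block (adjusted p = 0.143 and 0.112). Kdelr2, which returns chaperones to the ER, fell (log2 fold change -0.39, SE 0.09, adjusted p = 0.0107). Among propeptide processing and cross-linking genes 8 of 10 tested rose and 1 fell (4 and 1 without the block). Of these 10, 2 had a DMSO mean under 10 and reached the filter only through their treated libraries, which favours higher calls. Loxl2, a lysyl oxidase that cross-links collagen IV as well as fibrils, was 976, 985, 2104 and 2538 with DMSO and 7868, 10918, 16584 and 14957 with trametinib. The treated values were all above the DMSO values (log2 fold change 3.00, SE 0.14, adjusted p = 9.44e-05). Loxl1 (log2 fold change 2.93, SE 0.52, adjusted p = 0.00359) and Loxl3 (log2 fold change 1.87, SE 0.26, adjusted p = 0.00154) also rose, whereas Lox was below the filter and stood at 3.39, 2.27, 0 and 1.05 with DMSO and 2.14, 0, 43 and 1.05 with trametinib, with 1 treated library, that of line #5, apart from the rest. Pcolce2, an enhancer of propeptide removal, was the gene that fell (log2 fold change -1.38, SE 0.16, adjusted p = 0.000919). Of 6 tested fibril partners 4 rose and none fell (3 and 0 without the block), led by Tnc, tenascin C (log2 fold change 5.11, SE 0.47, adjusted p = 0.000449), Thbs1, thrombospondin 1 (log2 fold change 3.64, SE 0.35, adjusted p = 0.000539), and Fn1, fibronectin (log2 fold change 3.16, SE 0.27, adjusted p = 0.000363), with Sparc, a collagen-binding glycoprotein, as the remaining one (log2 fold change 2.61, SE 0.27, adjusted p = 0.000623).

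Of 7 tested collagen receptor genes 4 rose and 1 fell, beside 27.3% and 25.6% of all genes tested. The number that rose was 2 without the line as a block, under quantile normalization, and without line #5 (where 2 fell) or #10. Of the 7, 1 had a DMSO mean under 10 and reached the filter only through its treated libraries, which favours a higher call. Ddr1, the receptor tyrosine kinase that binds collagens in epithelial cells, was 3084, 4903, 3436 and 4327 with DMSO and 11031, 18817, 13431 and 13289.5 with trametinib. All treated values were above all DMSO values (log2 fold change 1.84, SE 0.09, adjusted p = 9.44e-05). Ddr2, its counterpart in mesenchymal cells, was low and close to the threshold (log2 fold change 1.20, SE 0.42, adjusted p = 0.0487), and its call was lost under 9 of the 14 alternatives. Itgb1, the beta chain shared by collagen-binding integrins, rose (log2 fold change 0.74, SE 0.14, adjusted p = 0.00539), as did Itga10 (log2 fold change 0.85, SE 0.21, adjusted p = 0.0131), and Itga2, the alpha chain that pairs with it in epithelia, fell (log2 fold change -1.11, SE 0.12, adjusted p = 0.000681). Without the line as a block the adjusted p of Itga2 was 0.0665 (range over alternatives 0.000347 to 0.0665).

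**Figure D5:**
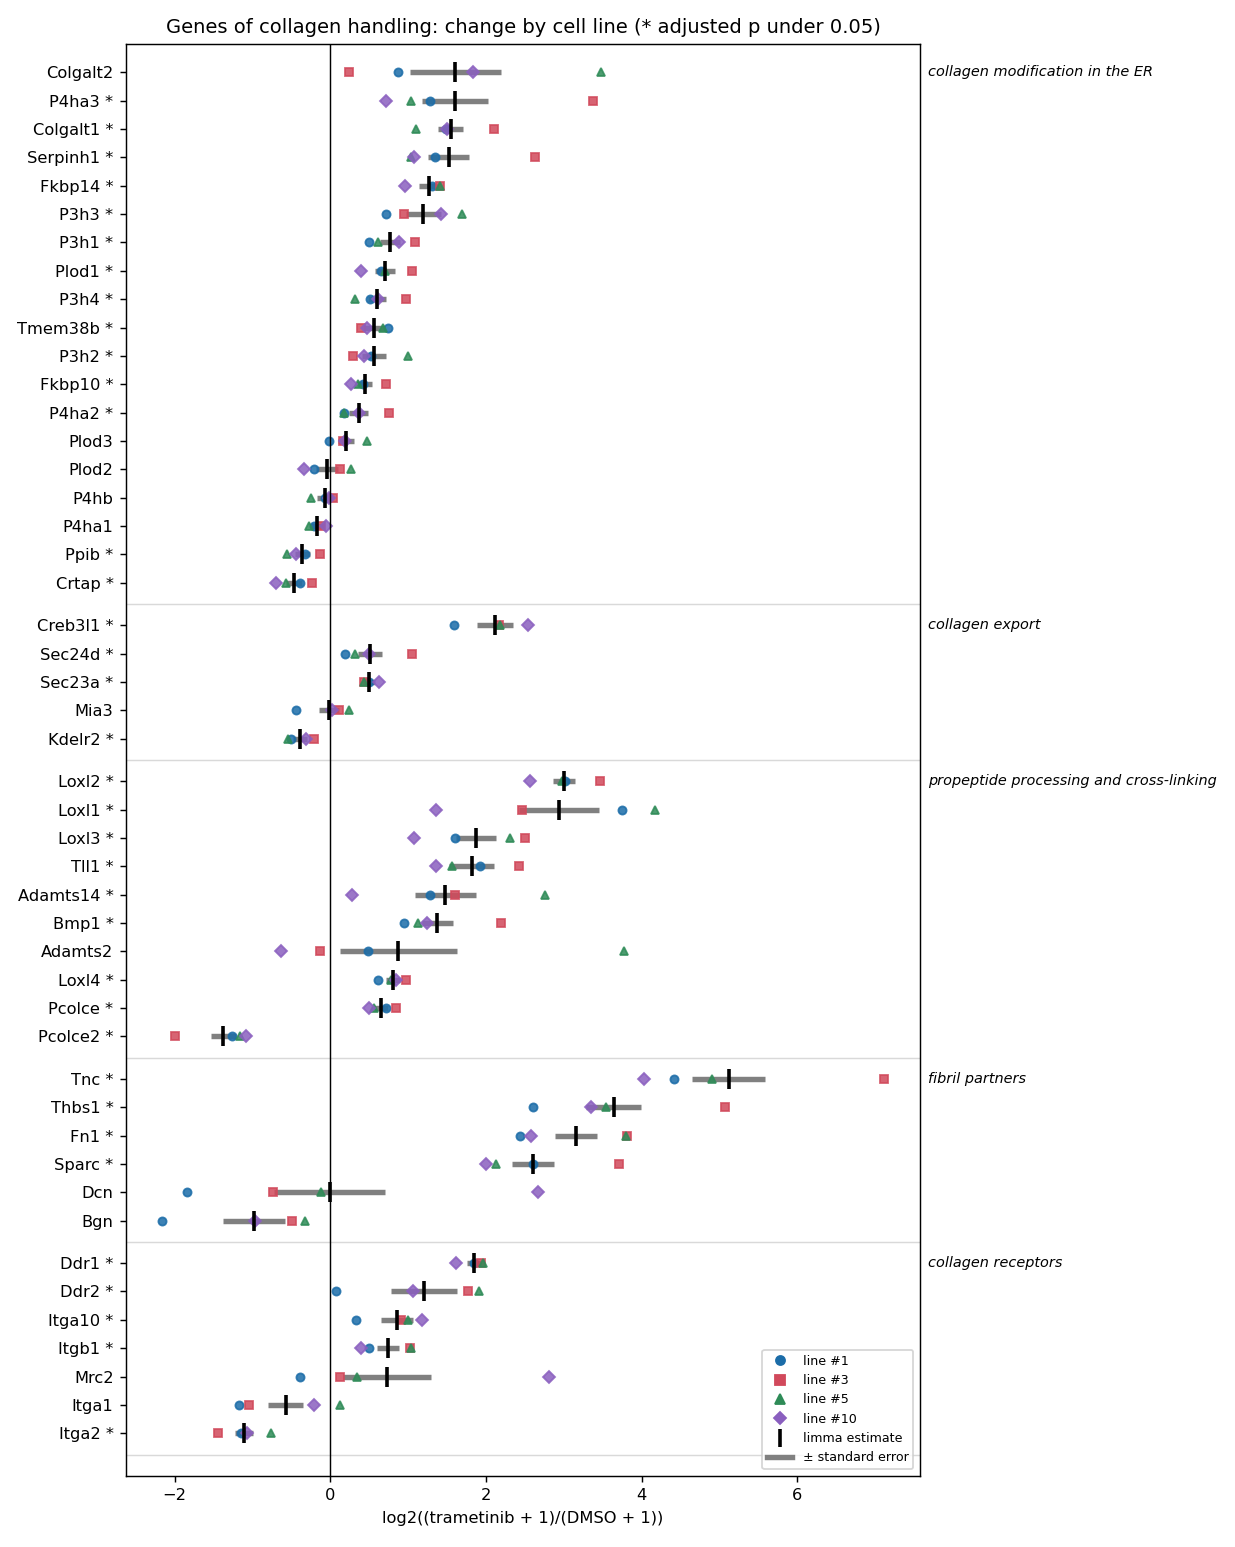
Points give log2((trametinib + 1)/(DMSO + 1)) in the 4 lines for the 47 tested genes of collagen modification, export, processing, fibril partners and receptors, with the limma estimate (black bar), its standard error (grey) and a star at an adjusted p under 0.05. Tnc at 5.11 and Thbs1 at 3.64 lie farthest to the right and Pcolce2 at -1.38 farthest to the left.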

How the data were processed

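The authors deposited 1 table of normalized counts (a signal per gene, not whole reads) for 34478 genes and 8 libraries, made from stranded polyA RNA-seq. The submitters' processing notes name CASAVA 2.17, Salmon 0.12, DESeq2 1.18 and the build mm10. How strand and isoforms were handled is not given in the sources used here. Genes with a mean of at least 10 over all libraries (15888 genes) were tested with limma 3.58.1 in R 4.3.3 on log2(value + 1), with the cell line as a block, an empirical Bayes variance trend and Benjamini-Hochberg adjustment over all genes tested, two-sided, at 0.05. Fold changes are therefore on the log2(value + 1) scale and understate the change of low genes. The script was tested on simulated data. The line numbers pair the libraries because the labels give the same cell line for both, and deviations from the group means correlated at r = 0.63 to 0.72 within lines (4 pairs) and at -0.31 to -0.02 between lines (12 pairs). Partner chains were compared by exact sign-flip permutation over the 4 lines. Transcript lengths and positions came from GENCODE M21 (GRCm38) and sequences from RefSeq (GRCm38.p6). All tested collagen genes were named, and of each other list the 3 called genes with the largest change plus a fixed set. Sequences were chosen by the size of the change, with earlier results known, or after the values were seen. Other alternatives were pseudocounts, scalings, filters, variance models and leaving out each line. The members and gene lists were chosen with earlier results of these data known. No column of per-sample values was left unused. A further allele of the mouse model is not reported here.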

Additional observations from a re-analysis of the deposited data

Results flagged for a closer look

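Dixon's criterion was applied on the log2(value + 1) scale, to the DMSO values, the trametinib values and the log2 fold changes. Values that stood apart from the other 3 of their group of 4 were found in 9 of 75 groups examined. For independent groups of normal values chance gives about 5%, or 3.75 groups. The groups here share lines and values, so the count of 9 is a description. Levels below are printed as normalized counts, to which the criterion was not applied. Line #3 accounted for 4 of the 9. With DMSO it had the lowest Col6a1, at 49.9 normalized counts against 911 to 1321 in the other lines, and the lowest Col6a2, at 15.1 against 269 to 449. With trametinib it had the highest Col4a3, at 100.7 against 17.5 to 21.8. Its log2 fold change of Col16a1 was 3.40 against 4.22 to 4.37. Line #10 had the lowest Col20a1 with DMSO, at 31.2 against 81.3 to 85.8, and the lowest Col26a1 with trametinib, at 11.4 against 34.9 to 42.9. Line #5 had the highest Col26a1 with DMSO, at 37.9 against 14.9 to 16.2, and its Col4a4 was listed at 0 with DMSO against 3.99 to 5.93. Line #1 had the lowest Col1a1 with trametinib, at 360.4 against 930.4 to 1110.1. Of these genes, Col6a2, Col20a1, Col16a1, Col4a4 and Col1a1 were among those called with trametinib.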

How the results depend on the processing

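Of 341 log2 fold changes recomputed for the tested collagen genes under 14 alternatives, 322 kept their direction and their side of the threshold, 12 lost the call, 2 gained one and 5 changed sign. The sign changes were in uncalled genes. Col4a6 was 0.082 with a pseudocount of 5 and 0.070 with equal totals, and -0.49 to 0.37 when single lines were left out, and Col3a1 was -0.23 to 1.70 when single lines were left out. The number of collagen genes called higher was 12 to 16 over the alternatives and 14 to 15 with a line left out. Without the filter it was 16 of 42 genes tested, and with a filter at a mean of 50 it was 12 of 16. Without the line as a block it was 12 of 25. The number called lower was 1 without the line as a block (the paired analysis is the main one), and 1 to 3 with a line left out, being 1 without line #1 or #5 (Col6a2 lost) and 3 without line #3 (Col8a1 gained). Without the block 13.9% of all genes were called higher and 14.8% lower. Leaving out a line gave log2 fold changes of 3.15 to 4.36 for Col12a1, 3.42 to 4.56 for Col4a4, 2.87 to 4.58 for Col5a2, 0.95 to 2.20 for Col5a1 and 2.35 to 3.53 for Col15a1. The rise of the collagen share was 0.141 to 0.237 percentage points. The cause of these dependences was not tested. With 4 lines the exact test of a pair of chains cannot go below p = 0.125, and the fold changes of genes near the floor of 3 reads depend on the pseudocount.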
